A study of Rattus norvegicus with 172 samples.

Results

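The shape of the dose response to 3-methylfuran was followed in the livers of 32 of the 70 rats of the series, those of the 3-methylfuran experiment. All were male Fischer 344 rats, kept for 90 days on diets that gave 0, 0.02, 0.075 or 1.0 mg of 3-methylfuran per kg of body weight per day, with 8 rats in each group. The remaining 38 rats formed a separate furan experiment (0, 0.03, 0.12, 0.5 and 2.0 mg/kg) with its own controls, and are used here only where a class of genes is looked up in rats that had no part in choosing it. Each rat is 1 library of whole-liver poly(A) RNA, sequenced in 3 runs that were summed, and values are CPM (counts scaled to the library's total and its TMM factor) or log2 fold changes against the 8 controls. CPM are not per transcript length, so levels are compared within a gene only. The 3 dose contrasts share the same 8 control rats, so they are given side by side and their likeness is not read as a result.

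Furan and its methylated relatives are formed in heated food. Cytochrome P450 enzymes in hepatocytes open the furan ring to a reactive dialdehyde that binds thiols and amines, and in rodents the liver is the main target. A dose-response shape separates genes that answer over the whole range from genes that answer only where exposure is high. Glutathione transferases and efflux pumps clear electrophiles, clock transcription factors turn the daily rhythm of liver metabolism, and glucocorticoid-responsive genes follow the stress hormone.

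Members were chosen by calls and estimates of 1 fit across 11930 genes (edgeR quasi-likelihood test, Benjamini-Hochberg adjusted p under 0.05). A gene called at 1.0 mg/kg but not below, which also differed in the same direction from 0.075 and from 0.02 mg/kg, and whose estimates at 0.02 and 0.075 were each under 0.25 of that at 1.0, was placed in the 1.0-only class. A graded gene was also called at 1.0 mg/kg but not below, with 1.0 called against 0.075 mg/kg in the same direction. Its estimate at 0.075 was 0.25 to 0.75 of that at 1.0, in the same direction and not exceeded at 0.02. Genes called at 0.075 were termed early, and divided into onward (1.0 called beyond 0.075), level (called at 1.0, not called against 0.075) and back (not called at 1.0). Since these values chose the classes, the dose profiles that follow are descriptions without a test of their own. A gene not called at a low dose is not shown to be unmoved there.

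At 0.02 mg/kg 4 genes were called (0.0335% of the genes tested; 2 higher, 0.0168%, and 2 lower, 0.0168%; 846 at an unadjusted p under 0.05). At 0.075 mg/kg 163 were called (1.37%). Of these 52 were higher (0.436%), 111 were lower (0.93%), and 53 had an estimate of 1.5-fold or more. At 1.0 mg/kg 5207 were called (43.6%). Here 2527 were higher (21.2%), 2680 lower (22.5%), and 1587 had an estimate of 1.5-fold or more. Without control rats, 1.0 against 0.075 mg/kg gave 4166 calls (34.9%; 16.9% higher, 18% lower), 1.0 against 0.02 mg/kg gave 4875 (40.9%; 20.3% higher, 20.6% lower), and 0.075 against 0.02 mg/kg gave 4 (0.0335%; 684 at an unadjusted p under 0.05). Those 4 were Magi3, higher at 0.075 (0.00838%), and Usp2, Nr1i2 and Cdc42ep3, lower (0.0251%). The median log2 fold change over all genes stayed between -0.002 and 0.004 in these contrasts and in 1.0 against 0.02 mg/kg.

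The 5 shapes held unequal numbers of genes. The 1.0-only class had 1881 members (862 higher, 1019 lower), 36.1% of the genes called at 1.0 mg/kg and 15.8% of all genes tested. The graded class had 734 (372 higher, 362 lower), 14.1% and 6.15%. The early genes were 43 onward (15 higher, 28 lower), 104 level (30 higher, 74 lower), 13 back (5 higher, 8 lower) and 3 others, Usp2, Daam1 and Slco1b2. A further 2442 genes called at 1.0 mg/kg met no definition. Of these, 1512 were not called between 1.0 and 0.075 mg/kg in the same direction, and in 741 of those the 0.075 estimate was over 0.5 of the 1.0 estimate. Another 247 had a 0.075 estimate in the opposite direction of at least 0.25 of the 1.0 estimate. In 570 the 0.075 estimate was under 0.25 of that at 1.0, but the 0.02 estimate was 0.25 or more of it in size or 1.0 was not called against 0.02 mg/kg. In the last 113 the 0.075 estimate was in the graded range but was exceeded at 0.02 mg/kg.

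Signed so that each gene's own direction is positive, the median log2 fold change of the 1.0-only genes was 0, 0.04 and 0.48 at 0.02, 0.075 and 1.0 mg/kg. It was 0.07, 0.18 and 0.51 in the graded class. Onward genes had medians of 0.20, 0.40 and 0.86, level genes 0.27, 0.48 and 0.50, and back genes 0.23, 0.41 and 0.12. In the plot of class profiles the 1.0-only line lies near 0 at both lower doses, while the level line is flat from 0.075 to 1.0 mg/kg. At the limits, Acat1 (0.25 of its 1.0 estimate at 0.075 mg/kg, just inside) and Ppt1 (0.25, just outside) stood on either side of the 1.0-only definition. Creb3l1 was the last called at 0.075 mg/kg (adjusted p = 0.0464) and Nedd1 the first not called (adjusted p = 0.0506). All of these limits were looked up only among genes with a proper symbol rather than a provisional identifier.

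**Figure D1:**
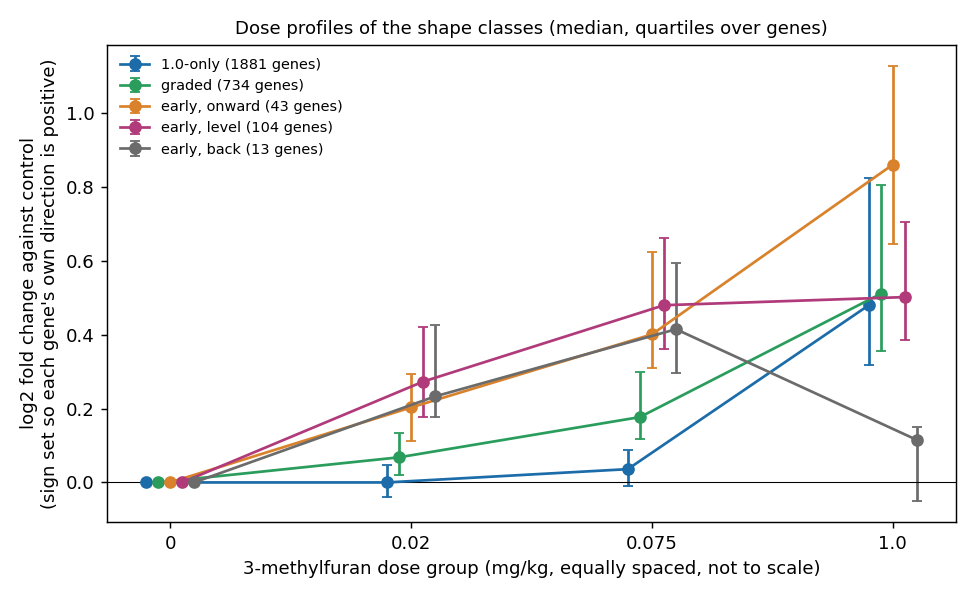
Median log2 fold change against control (vertical axis, each gene signed by its own direction) at the 4 dose groups (horizontal axis, equally spaced, mg/kg) for 1881 1.0-only, 734 graded, 43 onward, 104 level and 13 back genes. Points are medians and whiskers the quartiles over genes; the back class falls from 0.41 at 0.075 to 0.12 at 1.0 mg/kg.

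A line in dose, on the log2 scale, was called for 5724 genes (48%; 2837 rising with dose, 23.8%, and 2887 falling, 24.2%). A departure of the 4 group means from that line was called for 68 genes (0.57%; 1057 at an unadjusted p under 0.05). By class 45 of them were level, 9 onward and 5 back genes, and none was 1.0-only or graded. The definitions used the same estimates, so nothing is read from this division. On a line in mg/kg the point at 0.075 lies close to that of the controls, so a line and a step at 1.0 mg/kg differ little with these doses. By squared correlation with single-parameter shapes on log2 CPM, a description chosen after the classes were seen, 1179 of the 1881 1.0-only genes lay closest to the line in dose and 702 to a step at 1.0 mg/kg. Of the 734 graded genes 75.1% lay closest to the line and 24.7% to equal steps from group to group. Equal steps were also closest for 35 of 43 onward genes. Among the 104 level genes 53 lay closest to equal steps, 39 to a step between control and any dose and 12 to a step at 0.075 mg/kg.

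Genes of the 1.0-only class had estimates at both lower doses under 0.25 of that at 1.0 mg/kg, as the rule requires, and moved by up to 5.18 on the log2 scale at 1.0 mg/kg. In 781 of the 1881 (41.5%) the 8 rats at 1.0 mg/kg lay wholly outside the range of the controls, as did 11.5% of all genes tested; the rule used this contrast. Among the largest increases was Phgdh, the first enzyme of serine synthesis. Phgdh ran from 0.133 to 1.92 CPM in controls (median 0.957), 0.288 to 2.03 at 0.02 mg/kg (median 1.06), 0.405 to 3.63 at 0.075 mg/kg (median 1.27) and 14.6 to 49.6 at 1.0 mg/kg (median 34.1). Its log2 fold change was 4.93 ± 0.42 (SE, adjusted p = 2.13e-10) at 1.0 mg/kg and 0.75 ± 0.51 (SE, adjusted p = 0.562) at 0.075 mg/kg, where the 95% interval was -0.30 to 1.79. The lower 3 groups overlapped and all 8 rats at 1.0 mg/kg lay above them. For Prr32 the values were 0.28 to 1.83 CPM in controls (median 0.945), 0.228 to 2.96 at 0.02 mg/kg (median 1.69), 0.608 to 3.23 at 0.075 mg/kg (median 1.36) and 14.2 to 31.5 at 1.0 mg/kg (median 22.6). It rose by 4.46 ± 0.31 (SE, adjusted p = 3.22e-12) with no overlap between the top group and the rest. Erich5 rose at 1.0 mg/kg, by 3.36 ± 0.26 (SE, adjusted p = 9.84e-12).

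Gstp1, the placental-form glutathione transferase used as a marker of altered hepatocyte foci in rat liver, varied widely between rats at the top dose. Gstp1 ran from 6.75 to 21.6 CPM in controls (median 6.96), 3.87 to 7.73 at 0.02 mg/kg (median 6.19), 5.44 to 23.8 at 0.075 mg/kg (median 7.09) and 22.3 to 638 at 1.0 mg/kg (median 58.1). It rose by 3.68 ± 0.59 (SE, adjusted p = 8.94e-06) at 1.0 mg/kg. All 8 top-dose rats were above every control, but 1 of them, at 638 CPM, stood far above the next at 105, and without that rat the log2 fold change was 2.51. Cyp2c12, a P450 known as female-predominant in rats, rose as well. Its level was 9.42 to 18.6 CPM in controls (median 13.8), 10 to 26.1 at 0.02 mg/kg (median 14.7), 12.7 to 19.1 at 0.075 mg/kg (median 18.1) and 58.3 to 135 at 1.0 mg/kg (median 98.1). The change at 1.0 mg/kg was 2.78 ± 0.17 (SE, adjusted p = 3.36e-13), and the top group did not overlap the others. Near-identical Cyp2c genes can share reads, so this value is uncertain to that extent.

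The 250 bases before the RefSeq start of Gstp1 and of Phgdh (build GRCr8) are printed because these genes were among the largest steps at 1.0 mg/kg among enzymes of electrophile and serine metabolism. Capitals mark matches, on either strand, to TGACNNNGC (antioxidant response element core) or TTANNNAA (D-box core).
Gstp1, chr1:210769706-210769955, minus strand: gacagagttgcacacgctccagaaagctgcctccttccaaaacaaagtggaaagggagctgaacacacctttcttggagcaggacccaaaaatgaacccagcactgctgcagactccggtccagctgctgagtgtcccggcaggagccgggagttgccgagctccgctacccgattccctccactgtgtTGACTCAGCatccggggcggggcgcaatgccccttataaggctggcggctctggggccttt
Phgdh, chr2:188624790-188625039, minus strand: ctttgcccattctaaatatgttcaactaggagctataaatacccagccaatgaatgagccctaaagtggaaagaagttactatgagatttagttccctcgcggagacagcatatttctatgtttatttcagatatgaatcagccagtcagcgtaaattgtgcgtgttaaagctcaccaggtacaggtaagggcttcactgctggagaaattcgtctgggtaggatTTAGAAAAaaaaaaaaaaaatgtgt
The Gstp1 window held 1 match to TGACNNNGC, starting 61 bases before the start, and the Phgdh window 1 match to TTANNNAA, 25 bases before. Windows were found for 1411 of the 1879 symbols of the 1.0-only class. Of these, 12.7% held TGACNNNGC, beside 12.6% of the 8769 windows of all genes tested and 10.2% of all 27457 windows. CACGTG (E-box) was in 7.73% beside 8.21%, and TTANNNAA in 20.9% beside 21.2% of the windows of genes tested.

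The decreases of this class had the same form. Inmt, which methylates tryptamine and related amines, fell in the top group. Inmt ran from 50.2 to 182 CPM in controls (median 83.4), 37.6 to 119 at 0.02 mg/kg (median 87.2), 39.3 to 81.6 at 0.075 mg/kg (median 66.7) and 3.98 to 24.9 at 1.0 mg/kg (median 8.63). Its log2 fold change was -3.23 ± 0.35 (SE, adjusted p = 1.79e-08) at 1.0 mg/kg and -0.60 ± 0.31 (SE, adjusted p = 0.402) at 0.075 mg/kg. Nox4, an NADPH oxidase, fell too. Its range was 7.97 to 31.2 CPM in controls (median 24), 14.9 to 31.2 at 0.02 mg/kg (median 24.6), 12.2 to 37 at 0.075 mg/kg (median 20.8) and 1.52 to 9.87 at 1.0 mg/kg (median 3.3). The change was -2.54 ± 0.30 (SE, adjusted p = 1.02e-07); 7 of the 8 top-dose rats lay below all controls. Further members with large decreases were Gimd1 (-3.16), Igfn1 (-2.92) and the non-coding family entry RF00100 (-2.50), and further increases Ildr1 (3.73) and Gdf3 (3.48), all as log2 fold changes at 1.0 mg/kg.

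Of 32 tested genes of P450 families 1 to 4, 28 were called at 1.0 mg/kg (5 higher, 23 lower; median log2 fold change -0.45, beside -0.001 over all genes) and 20 of the 28 were 1.0-only, with none graded and none early. Over all genes tested 43.6% were called at 1.0 mg/kg (21.2% higher, 22.5% lower), 15.8% were 1.0-only and 6.15% graded, and the counts of the lists that follow are given beside these shares. Cyp2d1 is an example of the decreases. Cyp2d1 ran from 896 to 1221 CPM in controls (median 1090), 963 to 1106 at 0.02 mg/kg (median 1050), 829 to 1130 at 0.075 mg/kg (median 977) and 402 to 611 at 1.0 mg/kg (median 525.3). It changed by -1.05 ± 0.07 (SE, adjusted p = 2.01e-13) at 1.0 mg/kg with no overlap. At 0.075 mg/kg its estimate was -0.14 ± 0.07 (SE, adjusted p = 0.362), with a 95% interval of -0.28 to -0.001. Cyp2e1, the P450 that activates furan, went the other way. Cyp2e1 ran from 1738 to 2691 CPM in controls (median 2155), 1442 to 3013 at 0.02 mg/kg (median 2424), 1536 to 2981 at 0.075 mg/kg (median 2222) and 2625 to 3570 at 1.0 mg/kg (median 3007). Its change was 0.48 ± 0.13 (SE, adjusted p = 0.00393), and the top group overlapped the controls. Cyp1a2 (-1.29), Cyp3a18 (-1.31) and Cyp4a2 (-1.27) were other 1.0-only decreases.

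Of 24 bile acid genes tested, 20 were called at 1.0 mg/kg (4 higher, 16 lower, beside 21.2% and 22.5% of all genes; median -0.39), 12 of them 1.0-only (15.8% of all genes) and 2 graded, and 1 was early. Slc27a5, which activates bile acids for conjugation, fell at 1.0 mg/kg. Its values were 911 to 1368 CPM in controls (median 1179), 1156 to 1376 at 0.02 mg/kg (median 1202), 754 to 1387 at 0.075 mg/kg (median 1144) and 325 to 668 at 1.0 mg/kg (median 555). The change was -1.12 ± 0.13 (SE, adjusted p = 2.44e-08), without overlap. Baat, the conjugating enzyme, changed by -0.59 ± 0.08 (SE, adjusted p = 1.35e-07), and Slco1a1, an uptake transporter, by -0.91 ± 0.11 (SE, adjusted p = 3.79e-08). At 0.075 mg/kg their estimates were -0.01, 0.03 and 0.02.

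Of 34 cell cycle genes tested, 30 were called at 1.0 mg/kg, all higher (21.2% of all genes; median 1.26), and 20 were 1.0-only (15.8% of all genes), with 1 graded (Rrm1) and 9 in no class. The 1 early gene of the list, Mcm10, was lower at 0.075 mg/kg (-0.87) and not called at 1.0 mg/kg. Mki67, a proliferation marker, was 1.0-only. Mki67 ran from 0.266 to 5.59 CPM in controls (median 3.17), 2.4 to 7.15 at 0.02 mg/kg (median 3.77), 1.33 to 6.18 at 0.075 mg/kg (median 2.93) and 7.12 to 15.1 at 1.0 mg/kg (median 10.8). It rose by 1.83 ± 0.36 (SE, adjusted p = 0.000135), and all 8 top-dose rats were above all controls. Mcm3 rose by 1.70, Kif11 by 1.73 and Tyms by 1.20 on the log2 scale. Of 14 acute phase genes tested 13 fell (22.5% of all genes), with 5 1.0-only and 1 graded (median -0.36). Among 20 ATF4 and unfolded protein genes 13 fell and 2 rose (22.5% and 21.2% of all genes). Of those that fell 7 were 1.0-only (15.8% of all genes), including Sdf2l1 (-1.09) and Pdia6 (-0.47). Of 20 interferon genes 7 fell (22.5% of all genes) and none rose. Their 1.0-only members were 3 (Oas1a, Oasl and Ifi27), a share near the 15.8% of all genes. Of 9 markers of altered hepatocyte foci 7 rose (21.2% of all genes). Of these 4 were 1.0-only, Gstp1, Cd24, Epcam and Mest (15.8% of all genes). Of 10 hepatocyte marker genes 7 fell and 1 rose (22.5% and 21.2% of all genes). Apoa1 was the one that rose (1.13), and Alb was among those that fell (-0.26).

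Markers of other liver cell types were measured in the same rats. Their calls at 1.0 mg/kg stand beside 43.6% of all genes called (21.2% higher, 22.5% lower). The summed level of 14 macrophage markers was 357 to 478 CPM in controls and 284 to 599 at 1.0 mg/kg, with 1 called (Gpnmb, higher). The sum of 13 stellate markers was 158 to 206 and 138 to 180 CPM. Here 3 were called, all lower, a share near the 22.5% of all genes. That of 8 cholangiocyte markers was 89.9 to 106 and 94.3 to 118 CPM, with 2 higher and 1 lower, and that of 12 sinusoidal endothelial markers 155 to 264 and 137 to 242 CPM, with 1 lower. No tested marker of these lists was at 0 in all 32 rats. The part of cell composition in any class was not tested, and in whole liver fewer cells of a type and less RNA per cell cannot be told apart.

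Graded genes stood between control and top level at 0.075 mg/kg. Setd7, a lysine methyltransferase, rose in this way. Its levels ran from 0.0745 to 0.729 CPM in controls (median 0.28), 0.352 to 0.683 at 0.02 mg/kg (median 0.542), 0.235 to 1 at 0.075 mg/kg (median 0.673) and 1.45 to 4.58 at 1.0 mg/kg (median 2.68). The estimates at 0.02, 0.075 and 1.0 mg/kg were 0.50, 0.82 and 2.85, with 2.85 ± 0.29 (SE, adjusted p = 1.15e-09) at the top dose. The top group lay above all other rats, and 4 of 8 rats at 0.075 mg/kg were outside the control range. Mybl1, a transcription factor of the Myb family, also rose. Mybl1 ran from 0.729 to 1.77 CPM in controls (median 1.27), 0.676 to 4.32 at 0.02 mg/kg (median 1.17), 1 to 5.55 at 0.075 mg/kg (median 2.35) and 6.2 to 12.8 at 1.0 mg/kg (median 7.65). Its estimates were 0.42, 0.95 and 2.80 (adjusted p at 1.0 mg/kg = 1.9e-08), and 6 of 8 rats at 0.075 mg/kg were outside the control range. A single rat at 0.075 mg/kg, at 5.55 CPM, stood apart from the next at 2.78.

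For some graded genes the 0.075 estimate rested on few rats. Aldh1a7, an aldehyde dehydrogenase, had a log2 fold change of 1.32 ± 0.68 (SE, adjusted p = 0.407) at 0.075 mg/kg and 3.98 ± 0.60 (SE, adjusted p = 3.25e-06) at 1.0 mg/kg. Aldh1a7 ran from 0.0662 to 1.19 CPM in controls (median 0.219), 0.0796 to 0.505 at 0.02 mg/kg (median 0.228), 0.0675 to 3.3 at 0.075 mg/kg (median 0.3) and 3.08 to 12.9 at 1.0 mg/kg (median 7.13). Its medians in the lower 3 groups were close together, and 2 of 8 rats at 0.075 mg/kg were above the control range. Tsx (0.89, 1.14 and 3.91), Adgrg2 (-0.48, 1.16 and 3.35) and Mmp12, the macrophage elastase (0.24, 1.26 and 3.15), were other graded increases of low level, given as estimates at 0.02, 0.075 and 1.0 mg/kg; their control medians were 0.141, 0.0705 and 0.307 CPM.

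At higher levels, Per3 and Abcc2 were graded. Per3 is a clock repressor. Per3 ran from 0.759 to 2.16 CPM in controls (median 1.41), 0.986 to 2.37 at 0.02 mg/kg (median 1.76), 1.25 to 3.15 at 0.075 mg/kg (median 2.47) and 4.33 to 9.86 at 1.0 mg/kg (median 7.62). It rose by 2.35 ± 0.20 (SE, adjusted p = 2.76e-11) at 1.0 mg/kg with no overlap, and its 0.075 estimate was 0.59 ± 0.22 (SE, adjusted p = 0.185). Abcc2, the canalicular pump for glutathione and bilirubin conjugates, had a narrower spread. Abcc2 ran from 403 to 679 CPM in controls (median 558), 468 to 778 at 0.02 mg/kg (median 599), 545.2 to 1056 at 0.075 mg/kg (median 683) and 901 to 1074 at 1.0 mg/kg (median 980.2). Its estimates were 0.11, 0.38 and 0.80 (adjusted p = 0.0679 at 0.075 and 3.24e-07 at 1.0 mg/kg). The Abcc2 ranges of neighbouring groups overlapped, while the top group and the controls did not. Fas, a death receptor and p53 target, had estimates of 0.11, 0.53 and 1.30, with 1.30 ± 0.15 (SE, adjusted p = 8.25e-09) at the top dose. Myc varied more. Myc ran from 2.88 to 9.94 CPM in controls (median 4.72), 2.96 to 25.5 at 0.02 mg/kg (median 8.04), 4.25 to 27.6 at 0.075 mg/kg (median 12.2) and 16.7 to 65.7 at 1.0 mg/kg (median 23.7). It rose by 2.38 ± 0.44 (SE, adjusted p = 6.86e-05) at 1.0 mg/kg and all 8 rats there were above the controls; without the highest rat, at 65.7 CPM, the value was 2.09.

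Among graded decreases, Rgs16, a regulator of G-protein signalling, fell in the top group. Rgs16 ran from 15.9 to 106 CPM in controls (median 39), 6.25 to 157 at 0.02 mg/kg (median 30.7), 16.8 to 41.9 at 0.075 mg/kg (median 22.8) and 1.78 to 11.6 at 1.0 mg/kg (median 7.03). The change at 1.0 mg/kg was -2.73 ± 0.59 (SE, adjusted p = 0.000398), without overlap with controls, and the 0.075 estimate of -0.74 ± 0.53 (SE, adjusted p = 0.587) came with 0 of 8 rats outside the control range. Hamp encodes hepcidin, the hormone that limits iron export. Hamp ran from 346 to 731 CPM in controls (median 453), 237 to 914 at 0.02 mg/kg (median 386), 216 to 534 at 0.075 mg/kg (median 321) and 144 to 475 at 1.0 mg/kg (median 183). It changed by -1.14 ± 0.27 (SE, adjusted p = 0.00118), with 7 of 8 top-dose rats below all controls. Pck1, a gluconeogenic enzyme, changed by -0.92 ± 0.20 (SE, adjusted p = 0.000433), and its estimates at 0.02 and 0.075 mg/kg were -0.08 and -0.27. Srms (-0.12, -0.74 and -2.69), Cytip (-0.53, -0.73 and -2.15), Fras1 (-0.55 and -0.88 at the lower doses and -1.996 at 1.0 mg/kg), Irs3 (-0.20, -0.88 and -1.83) and Ky (-0.21, -1.13 and -3.67) were the other graded decreases named by size.

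By list, PPARA targets had as many graded as 1.0-only members. Of 28 tested 17 were called at 1.0 mg/kg (2 higher, 15 lower, beside 21.2% and 22.5% of all genes; median -0.21). Of these 6 were 1.0-only and 6 graded (15.8% and 6.15% of all genes), all 12 lower. Acaa1a, a peroxisomal thiolase, was graded (-0.16, -0.18 and -0.41) and Bdh1, a ketone body enzyme, 1.0-only (0.04, 0.03 and -0.58). Among 19 serine and one-carbon genes 7 rose and 6 fell, beside 21.2% and 22.5% of all genes. Phgdh, Mthfd1, Mthfd1l and Amt were 1.0-only increases, while Psat1 (-0.06, 0.59 and 1.53) and Mthfd2 (0.22, 0.77 and 1.54) were graded. Of 23 NRF2 and electrophile genes 15 rose at 1.0 mg/kg (21.2% of all genes) and none fell (median 0.58). Only 4 of the 15 were 1.0-only and 3 graded, and 8 met no definition. In several of the 8 the 0.02 estimate was below 0: it was -2.50 for Gsta3, -1.57 for Gpx2, -1.15 for Abcc3 and -1.14 for Akr7a3, beside 0.31, 0.57, 0.14 and 0.15 at 0.075 mg/kg. None of these was called at either low dose. These 4 were picked after their values were seen.

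In the plot of gene lists the P450 bar holds only 1.0-only and unclassified calls, while clock and glucocorticoid lists are those with more than 10% of members called at 0.075 mg/kg.

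**Figure D2:**
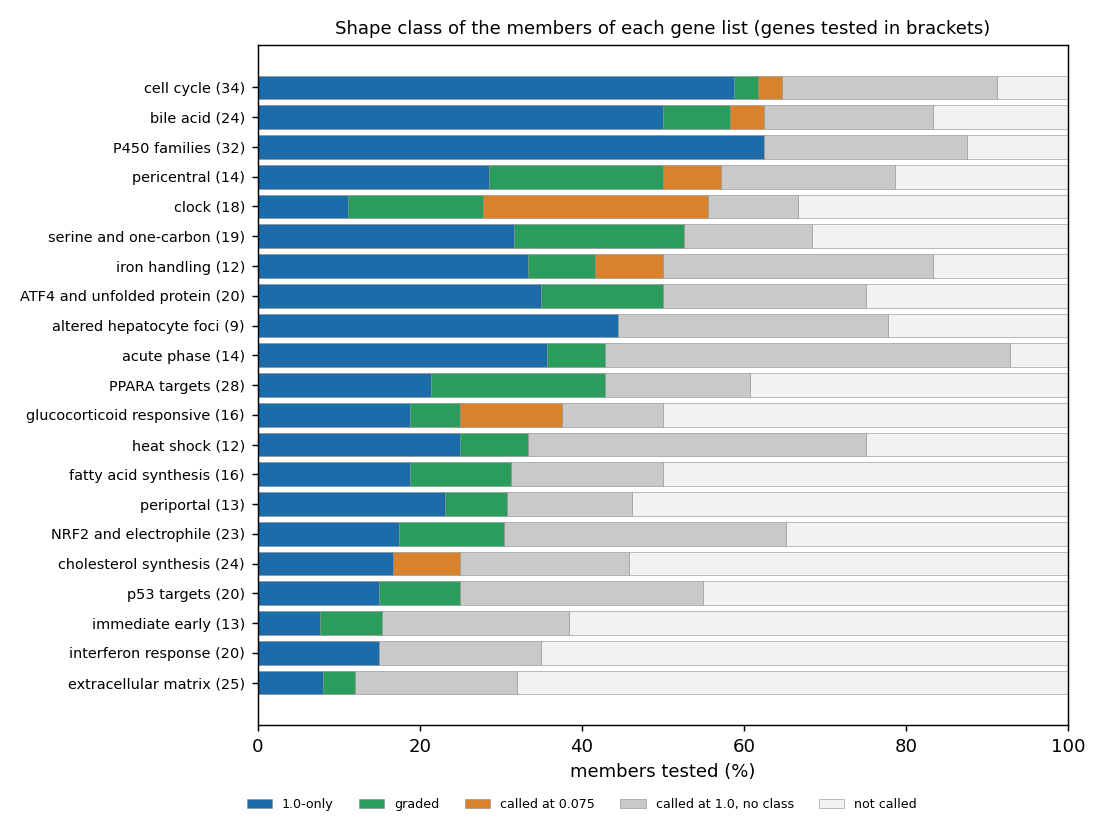
Share of tested members (horizontal axis, percent) of 21 gene lists that were 1.0-only, graded, called at 0.075 mg/kg, called at 1.0 mg/kg in no class, or not called; the number tested is in brackets. Cell cycle (20 of 34) and P450 genes (20 of 32) are mostly 1.0-only, and 5 of 18 clock genes were called at 0.075 mg/kg.

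**Figure D3:**
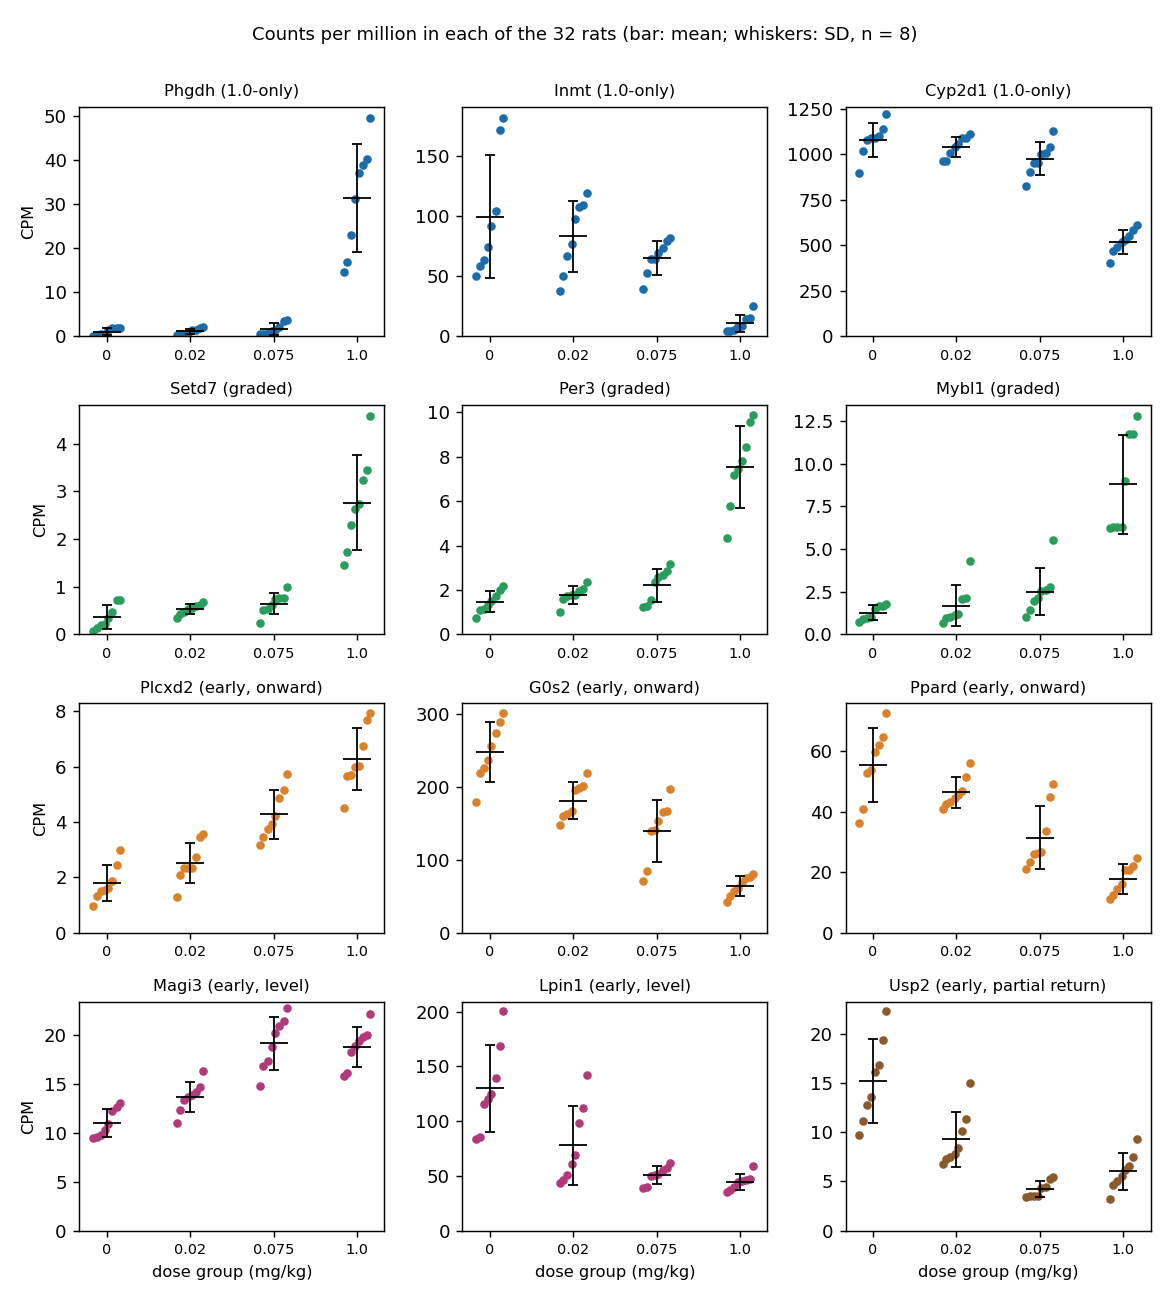
CPM (vertical axes, from 0) in each of the 8 rats of the 4 dose groups (horizontal axes, mg/kg) for 12 genes, with the mean as a bar and SD as whiskers. The 1.0-only genes Phgdh, Inmt and Cyp2d1 separate only the top group. The onward genes Plcxd2, G0s2 and Ppard differ from control at 0.075 mg/kg and further at 1.0 mg/kg. These onward genes were not called between 0.02 and 0.075 mg/kg. Magi3 and Lpin1 stay level between 0.075 and 1.0 mg/kg.

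Onward genes differed from control at 0.075 mg/kg and further at 1.0 mg/kg. Plcxd2, which carries a phospholipase C-like domain, rose at both. Plcxd2 ran from 0.968 to 2.98 CPM in controls (median 1.57), 1.3 to 3.55 at 0.02 mg/kg (median 2.35), 3.18 to 5.72 at 0.075 mg/kg (median 4.06) and 4.53 to 7.94 at 1.0 mg/kg (median 6). The log2 fold change was 1.26 ± 0.18 (SE, adjusted p = 0.00011) at 0.075 and 1.80 ± 0.18 (SE, adjusted p = 5.03e-10) at 1.0 mg/kg, and 0.54 ± 0.16 (SE, adjusted p = 0.00626) between them. All 8 rats of both groups lay above all controls. Nr1d2 encodes REV-ERB beta, a clock repressor. Nr1d2 ran from 8.94 to 17.8 CPM in controls (median 12.4), 10.5 to 17.7 at 0.02 mg/kg (median 13.9), 12.7 to 27.1 at 0.075 mg/kg (median 21.2) and 18.2 to 35.6 at 1.0 mg/kg (median 31). It rose by 0.72 ± 0.15 (SE, adjusted p = 0.00733) and 1.19 ± 0.15 (SE, adjusted p = 9.45e-08), with 7 and 8 of 8 rats outside the control range. Epha4 (1.19, 1.22 and 2.08), Wdr19 (0.27, 0.65 and 1.01), Cdc25c (0.37, 0.62 and 1.13), Serpinb8 (0.26, 0.54 and 0.90) and Ccdc66 (0.24, 0.45 and 0.89) were other onward increases, all under 10 CPM in every rat.

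Onward decreases were more numerous than increases (28 of 43), as among all genes called at 0.075 mg/kg (111 of 163). G0s2 inhibits the main triglyceride lipase. G0s2 ran from 179 to 301 CPM in controls (median 246), 148 to 218 at 0.02 mg/kg (median 181), 71.3 to 196 at 0.075 mg/kg (median 147) and 42.3 to 80 at 1.0 mg/kg (median 65.1). It changed by -0.83 ± 0.16 (SE, adjusted p = 0.0049) at 0.075 and -1.96 ± 0.17 (SE, adjusted p = 1.05e-10) at 1.0 mg/kg. The top group lay below all controls, and at 0.075 mg/kg 7 of 8 rats did. Ppard, a lipid-sensing nuclear receptor, fell in both groups. Ppard ran from 36.3 to 72.8 CPM in controls (median 56.8), 40.9 to 56.3 at 0.02 mg/kg (median 44.9), 21.1 to 49.2 at 0.075 mg/kg (median 26.4) and 11.2 to 24.6 at 1.0 mg/kg (median 18.4). Its changes were -0.82 ± 0.17 (SE, adjusted p = 0.00908) and -1.65 ± 0.18 (SE, adjusted p = 1.11e-08). Epha2, a receptor tyrosine kinase, changed by -0.83 ± 0.14 (SE, adjusted p = 0.000804) and -1.41 ± 0.14 (SE, adjusted p = 1.73e-09), from a control median of 49.9 to 27.4 and 17.5 CPM. Ppp1r3b, which targets a phosphatase to glycogen, went from a median of 435 CPM in controls to 276 and 188 (-0.65 ± 0.12 (SE, adjusted p = 0.00154) and -1.14 ± 0.12 (SE, adjusted p = 1.73e-09)). Its relative Ppp1r3c had estimates of -0.24, -0.59 and -1.03, and the lipid droplet gene Cidec -0.12, -0.35 and -0.75. Nr1i2, the xenobiotic sensor PXR, was 1 of the 3 genes lower at 0.075 than at 0.02 mg/kg. Its range was 156 to 217 CPM in controls (median 172), 159.6 to 201.5 at 0.02 mg/kg (median 176), 120.2 to 150.1 at 0.075 mg/kg (median 141) and 112 to 131 at 1.0 mg/kg (median 128). Between those doses it changed by -0.36 ± 0.06 (SE, adjusted p = 0.00877), and both higher groups lay below all controls.

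Level genes were called at 0.075 and 1.0 mg/kg with no call between these doses. The rule itself favours a flat profile, and a missing call does not show that a member was unchanged between them. Magi3, a membrane scaffold protein, was the gene called higher at 0.075 than at 0.02 mg/kg. Magi3 ran from 9.5 to 13 CPM in controls (median 10.6), 11 to 16.3 at 0.02 mg/kg (median 13.7), 14.8 to 22.7 at 0.075 mg/kg (median 19.4) and 15.8 to 22.1 at 1.0 mg/kg (median 19). It rose by 0.80 ± 0.09 (SE, adjusted p = 8.23e-07) and 0.77 ± 0.09 (SE, adjusted p = 1.64e-08), and the difference between these doses was -0.03 ± 0.09 (SE, adjusted p = 0.816), with a 95% interval of -0.21 to 0.14. All 8 rats of both higher groups lay above all controls. Nr1d1 encodes REV-ERB alpha, the paralog of REV-ERB beta. Nr1d1 ran from 4.72 to 15.4 CPM in controls (median 6.76), 2.2 to 17 at 0.02 mg/kg (median 7.91), 12.3 to 31.8 at 0.075 mg/kg (median 20.4) and 7.9 to 39.9 at 1.0 mg/kg (median 32.7). Its changes were 1.48 ± 0.34 (SE, adjusted p = 0.0198) and 1.93 ± 0.34 (SE, adjusted p = 3.47e-05). In each of these groups 7 of 8 rats were above the controls.

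Lpin1, a phosphatidate phosphatase of triglyceride synthesis, fell in both groups. Lpin1 ran from 83.7 to 201 CPM in controls (median 123), 43.5 to 142 at 0.02 mg/kg (median 65), 38.7 to 62.1 at 0.075 mg/kg (median 51.6) and 35.8 to 59.1 at 1.0 mg/kg (median 44.8). The changes were -1.35 ± 0.21 (SE, adjusted p = 0.000593) and -1.55 ± 0.21 (SE, adjusted p = 8.1e-07), with no overlap with controls at either dose. Zbtb16, a zinc finger repressor known to respond to glucocorticoids, had wide control values. Zbtb16 ran from 2.98 to 42 CPM in controls (median 20.7), 1.91 to 20.9 at 0.02 mg/kg (median 5.53), 1.94 to 11.2 at 0.075 mg/kg (median 3.74) and 2.92 to 6.28 at 1.0 mg/kg (median 4.08). It changed by -2.23 ± 0.50 (SE, adjusted p = 0.0158) and -2.18 ± 0.50 (SE, adjusted p = 0.000724), but 1 control was as low as 2.98 CPM and only 1 of 8 rats in each group was outside the control range. Klf13, a Kruppel-like factor of the same list, changed by -1.25 ± 0.22 (SE, adjusted p = 0.00115) and -1.16 ± 0.22 (SE, adjusted p = 6.01e-05), from a control median of 3.14 to 1.31 and 1.36 CPM. Insig1, which helps to hold SREBP proteins in the endoplasmic reticulum, was also lower. Insig1 ran from 199 to 909 CPM in controls (median 678), 171 to 656 at 0.02 mg/kg (median 345), 105 to 401 at 0.075 mg/kg (median 211) and 139 to 405 at 1.0 mg/kg (median 254). Its changes were -1.36 ± 0.29 (SE, adjusted p = 0.0123) and -1.23 ± 0.29 (SE, adjusted p = 0.00102), with the ranges overlapping. Mfsd2a (-0.46, -1.25 and -1.31) and Angptl8 (-0.99, -1.25 and -1.49), which act in lipid transport and its control, were further level decreases, and Fign (0.66, 0.76 and 1.04), Mbnl3 (0.57, 0.72 and 0.95), Mcc (0.34, 0.66 and 0.74) and Zfp385b (0.33, 0.62 and 0.44) increases.

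The window before Insig1 is printed as a level gene with 1 match to CACGTG (E-box, in capitals), 79 bases before the start.
Insig1, chr4:8057770-8058019, minus strand: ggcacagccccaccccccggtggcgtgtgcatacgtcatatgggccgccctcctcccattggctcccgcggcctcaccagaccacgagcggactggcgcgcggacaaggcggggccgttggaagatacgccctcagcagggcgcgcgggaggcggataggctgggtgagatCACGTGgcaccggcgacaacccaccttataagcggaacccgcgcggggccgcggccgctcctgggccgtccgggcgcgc
Of the 163 early genes 120 had a window. TGACNNNGC was in 17.5% of them, CACGTG in 10% and TTANNNAA in 10.8%, beside 12.6%, 8.21% and 21.2% of the windows of genes tested. In the graded class, with 579 windows, the shares were 14%, 8.81% and 22.6%. No difference between these shares was tested. Windows of some other named genes were searched and are not printed. Those of Nr1d1, Nr1d2, Per3, Dbp and Slco1b2 held no match to any of these motifs. Usp2 and Magi3 had a match to TGACNNNGC.

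The 4 genes called at 0.02 mg/kg were called at 0.075 mg/kg as well, 3 as level genes and 1 as a back gene, and are named because they were few. Arhgap24, a GTPase-activating protein for Rac, rose. Arhgap24 ran from 10.4 to 18.3 CPM in controls (median 13.6), 16.1 to 23 at 0.02 mg/kg (median 20.3), 15.1 to 23.4 at 0.075 mg/kg (median 20.5) and 19.3 to 25.5 at 1.0 mg/kg (median 21.5). Its changes at 0.02, 0.075 and 1.0 mg/kg were 0.56 ± 0.10 (SE, adjusted p = 0.0127), 0.57 ± 0.09 (SE, adjusted p = 0.000593) and 0.70 ± 0.09 (SE, adjusted p = 2.29e-07). Homer1, a synaptic scaffold protein also present elsewhere, rose by 0.54 ± 0.10 (SE, adjusted p = 0.0127) at 0.02 mg/kg, where its range of 6.92 to 9.53 CPM lay above the controls' 4.05 to 6.58; at the higher doses it was 0.40 and 0.39. Hs6st1, a heparan sulfate sulfotransferase, changed by -0.50 ± 0.10 (SE, adjusted p = 0.0405), -0.61 ± 0.10 (SE, adjusted p = 0.000417) and -0.38 ± 0.10 (SE, adjusted p = 0.00181). The remaining gene was Ppan.

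Back genes differed at 0.075 mg/kg and were not called at 1.0 mg/kg. The class needs no call between these doses, so a return is not shown for every member. Ppan, a ribosome assembly factor, was lower at both low doses. Ppan ran from 15.8 to 25.8 CPM in controls (median 20.6), 10.7 to 17.7 at 0.02 mg/kg (median 14), 11.4 to 15.3 at 0.075 mg/kg (median 13.7) and 13.3 to 23.9 at 1.0 mg/kg (median 18.8). Its changes were -0.59 ± 0.11 (SE, adjusted p = 0.0264), -0.59 ± 0.11 (SE, adjusted p = 0.00172) and -0.15 ± 0.11 (SE, adjusted p = 0.264), and 1.0 exceeded 0.075 mg/kg by 0.44 ± 0.11 (SE, adjusted p = 0.0012). All 8 rats at 0.075 mg/kg were below all controls. Rrs1, another ribosome assembly factor (-0.60, -0.55 and 0.09), Cd3eap, a subunit of RNA polymerase I (-0.56, -0.65 and -0.34), Mcm10, a replication factor (-0.23, -0.87 and -0.47), Znf750 (-0.43, -0.67 and -0.08) and Cobll1 (-0.05, -0.31 and -0.13) were the other decreases named by size. For Mcm10 the adjusted p was 0.0555 at 1.0 mg/kg and 0.116 for 1.0 against 0.075 mg/kg. Aqp9, the glycerol channel of hepatocytes, was a back increase. Aqp9 ran from 120.4 to 144 CPM in controls (median 136), 138 to 177 at 0.02 mg/kg (median 159), 144 to 176 at 0.075 mg/kg (median 168) and 102 to 163 at 1.0 mg/kg (median 126). It rose by 0.28 ± 0.07 (SE, adjusted p = 0.0348) and was -0.11 ± 0.07 (SE, adjusted p = 0.211) at 1.0 mg/kg. Taok3 (0.32, 0.41 and 0.16), Vav2 (0.14, 0.30 and 0.12), Pxylp1 (0.23, 0.42 and 0.12) and Gramd1c (0.15, 0.26 and -0.05) were the other back increases. Slco1b2, a hepatocyte uptake transporter, was called in opposite directions. Slco1b2 ran from 436 to 605 CPM in controls (median 534), 580.4 to 788 at 0.02 mg/kg (median 653), 580.2 to 759 at 0.075 mg/kg (median 673) and 349 to 588 at 1.0 mg/kg (median 436). It was 0.36 ± 0.08 (SE, adjusted p = 0.0155) at 0.075 and -0.23 ± 0.08 (SE, adjusted p = 0.0251) at 1.0 mg/kg.

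Clock genes were found in the 1.0-only, graded and early classes. Of 18 tested, 12 were called at 1.0 mg/kg (4 higher, 8 lower, beside 21.2% and 22.5% of all genes) and 5 at 0.075 mg/kg (beside 1.37% of all genes). Among these, Nr1d1 and Nr1d2 were higher, and Cry1 and Usp2 lower. Usp2, a deubiquitinase with a daily rhythm in liver, had the smallest adjusted p of these at 0.075 mg/kg. Usp2 ran from 9.7 to 22.3 CPM in controls (median 14.9), 6.78 to 15 at 0.02 mg/kg (median 8.09), 3.44 to 5.46 at 0.075 mg/kg (median 3.98) and 3.27 to 9.3 at 1.0 mg/kg (median 5.87). Its changes were -0.73 ± 0.18 (SE, adjusted p = 0.192), -1.88 ± 0.19 (SE, adjusted p = 2.02e-07) and -1.34 ± 0.18 (SE, adjusted p = 3.93e-07). The rats at 0.075 and 1.0 mg/kg lay below all controls, and the 1.0 group stood higher than the 0.075 group by 0.54 ± 0.19 (SE, adjusted p = 0.0267). Cry1, a clock repressor, had estimates of -0.30, -0.87 and -0.64. Dbp, an output factor of the clock, was 1.0-only instead (-0.02, -0.08 and 1.57), as was Npas2 (0.02, -0.06 and -0.96), while Per3, Arntl (-0.06, -0.14 and -0.36) and Hlf (-0.21, -0.29 and -0.84) were graded. Per1, which answers quickly to glucocorticoids, was not called: its estimates were -0.68, -1.15 and -0.24. Of 16 glucocorticoid-responsive genes, 2 were called at 0.075 mg/kg, Zbtb16 and Klf13, both lower (0.93% of all genes). At 1.0 mg/kg 8 were called, all lower (22.5% of all genes). Fkbp5 was not called (-0.06, -0.04 and -0.15). The labels give no hour of sampling or order of handling, and their part in these genes was not tested.

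The 0.075 mg/kg group was sequenced deepest, at 13.2 to 50 M counts per rat (median 24.2) beside 11.1 to 18.9 M in controls (median 14.2), 12 to 17.6 M at 0.02 (median 13.8) and 12.8 to 24.3 M at 1.0 mg/kg (median 16.8). With all rats thinned to the shallowest, 132 genes were called at 0.075 mg/kg and 113 of the 163 were among them. With only the 4 rats of that group under 25 M counts 44 were called (41 shared), and with only the 4 over 25 M 39 (35 shared), a split chosen after seeing the data. These settings use the rats that chose the genes. Leaving out rat MB541 or MB549 of the 0.075 mg/kg group lowered the count to 103 and 106. The counts of runs of a rat differed by no more than sampling noise (chi-square per degree of freedom 1 to 1.04), while pairs of rats of a group were at 6.82 or more.

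In the furan experiment, where classes could be looked up in 38 other rats, 12727 genes were tested. At furan 2.0 mg/kg 46.5% of all genes were called (24% higher, 22.5% lower). Of the 1878 1.0-only genes tested there 1616 (86%) were called in the same direction and 5 in the opposite one. Of 731 graded genes 75% were called the same way and 7 the opposite. Onward genes had 34 of 43 the same way (79.1%) and 2 opposite. Of 104 level genes 26 were called the same way (25%) and 20 opposite (19.2%). These shares were near those of all genes called in each direction, so nothing is read from them. Of the 13 back genes 11 were called in the direction opposite to that at 3-methylfuran 0.075 mg/kg and none in the same. The compounds were given at different doses and their libraries made with different kits, so sizes are not compared.

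**Figure D4:**
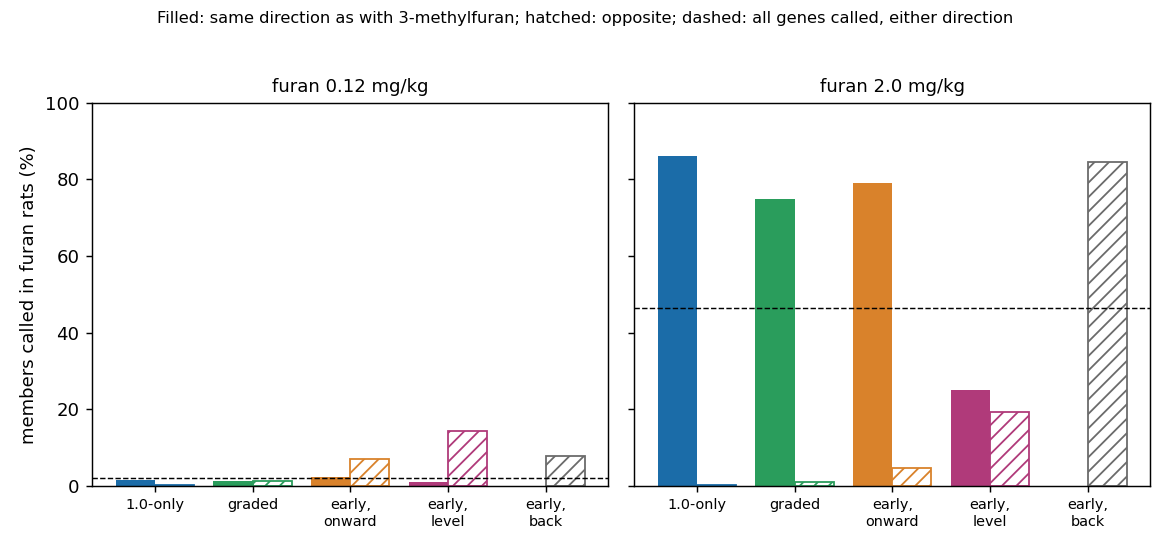
Percent of the tested members of each class (vertical axis) called in furan rats at 0.12 and 2.0 mg/kg, filled for the direction seen with 3-methylfuran and hatched for the opposite one; the dashed line is the share of all genes called in either direction (1.94% and 46.5%). At 2.0 mg/kg 86% of the 1.0-only genes are in the same direction, and 11 of 13 back genes in the opposite one.

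At furan 0.12 mg/kg 1.94% of all genes were called (1.02% higher, 0.919% lower). Of the 163 early genes 2 were called in the same direction and 20 (12.3%) in the opposite direction. Of the 104 level genes the counts were 1 and 15, and of the 43 onward genes 1 and 3. Named genes with opposite calls were Zbtb16, at 2.79 ± 0.54 (SE, adjusted p = 0.00354), Lpin1, at 1.47 ± 0.32 (SE, adjusted p = 0.0103), and Klf13, at 1.08 ± 0.17 (SE, adjusted p = 0.000545). Usp2 was at 0.97 ± 0.24 (SE, adjusted p = 0.0233), Nr1i2 at 0.59 ± 0.11 (SE, adjusted p = 0.00148) and Ankrd33b at 1.07 ± 0.21 (SE, adjusted p = 0.00344). Nr1d1 and Nr1d2 were the early clock genes called the same way, at 1.40 ± 0.34 (SE, adjusted p = 0.0235) and 0.59 ± 0.14 (SE, adjusted p = 0.0215). The 1.0-only class had 26 called the same way and 6 opposite (1.38% and 0.319%), and the graded class 9 and 9 (1.23% each). At furan 0.5 mg/kg 3.16% of all genes were called (1.5% higher, 1.66% lower), and 7 early genes (4.29%) were called in the same direction and 19 (11.7%) in the opposite one. Of the 19 opposite calls 16 were level and 3 onward genes. The 1.0-only class had 80 the same way and 5 opposite there, and the graded class 28 and 5. At furan 0.03 mg/kg 0.0707% of all genes were called (0.0471% higher, 0.0236% lower), among them 0 early genes in the same direction and 2 in the opposite one.

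Some members were not called in the same direction at furan 2.0 mg/kg. Cyp2c12 was at 0.58 ± 0.45 (SE, adjusted p = 0.291) there and Cyp2e1 at -0.07 ± 0.16 (SE, adjusted p = 0.731). Myc was at -0.76 ± 0.46 (SE, adjusted p = 0.181) and Abcc2 at 0.18 ± 0.13 (SE, adjusted p = 0.241). Magi3, higher with 3-methylfuran, was lower, at -0.35 ± 0.13 (SE, adjusted p = 0.0208). Mest, also higher with 3-methylfuran, was at -0.49 ± 0.18 (SE, adjusted p = 0.0244). By contrast Phgdh was at 4.23 ± 0.67 (SE, adjusted p = 4.47e-06), Per3 at 2.10 ± 0.23 (SE, adjusted p = 3.42e-09) and G0s2 at -0.97 ± 0.23 (SE, adjusted p = 0.000778), each in the direction of the 3-methylfuran change.

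Fitted over the 24 dosed rats alone, without any control, a line in dose was called for 5317 of 11930 genes. All 1881 1.0-only, 734 graded and 43 onward genes were called in their own direction, as were 39 of the 104 level genes, with 1 opposite. Of the 13 back genes 8 were called in the opposite direction. These rats also took part in the definitions, so the counts describe and do not test the classes.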

How the data were processed

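Per the submitters' processing notes, reads were handled with STAR 2.7.1a, featureCounts 2.0.0 and DESeq2 1.26.0 on Rnor 6.0. How strand and multimapping reads were treated in counting is not given in the sources used here. Counts deposited by the authors are whole numbers per gene and run, without normalization. The authors' deposited 3-methylfuran comparison table gives, for every gene at each dose, a ratio (fold) with its adjusted p-value; in their furan table the fold is signed, with a decrease as a negative reciprocal. Only symbols and the number of calls were taken from these.

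The 3 runs of each rat were summed, and the sample titles placed each control in its experiment. In R 4.3.3, edgeR 4.0.16 (filterByExpr minimum count 10, TMM, robust quasi-likelihood F test, Benjamini-Hochberg) was fitted to 32 rats with 1 coefficient per dose group, which left 28 residual degrees of freedom. Of 32883 genes 11930 were tested. Furan rats had their own fit. SE was taken as the estimate over the root of its F value. The code was tested on simulated data. Replicates are separate rats.

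The members and the 32 gene lists (515 of 581 symbols in the tables) were chosen with earlier results of these data known. Named genes were, per class and direction, the 6 with the largest estimate (at 1.0 mg/kg, or at 0.075 mg/kg for early genes), with a proper symbol, at least 1 CPM and all 8 rats on 1 side of the control mean, then up to 4 class members per list by adjusted p, and 12 genes of fixed interest (Cyp2e1, Gstp1, Phgdh, Mki67, Cdkn1a, Hamp, Dbp, Per1, Zbtb16, Fkbp5, Scd and Fasn); genes in groups of 5 or fewer, and others where stated, were named after their values were seen. Alternatives were DESeq2 1.42.0 and limma 3.58.1 (voom), other scalings, filters, limits and depths, and each rat left out. Promoter windows are RefSeq's (GRCr8), matched by symbol. Some genes are not reported here.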

Additional observations from a re-analysis of the deposited data

Results flagged for a closer look

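For the 43 genes whose group values are given above, each dose group of 8 rats was examined for a single rat standing apart from the other 7, judged by its gap to the nearest rat over the group's range. This was so in 11 of 172 groups, where chance alone gives about 1 in 20.

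Rat ME587 at 1.0 mg/kg had 638 CPM of Gstp1 (next 105), 65.7 CPM of Myc (next 32.9) and 475 CPM of Hamp (next 237). Without it the log2 fold changes at 1.0 mg/kg were 2.51, 2.09 and -1.40, beside 3.68, 2.38 and -1.14 with it, and all 3 stayed called. At the same dose Nox4 was 9.87 CPM in 1 rat (next 4.76) and Hs6st1 26.7 CPM in another (next 22).

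At 0.075 mg/kg rat MB546 was high for Mybl1 (5.55 CPM, next 2.78) and Homer1 (9.5 CPM, next 7.57), rat MB542 was high for Zbtb16 (11.2 CPM, next 4.24), and rat MB549 was low for Pck1 (866 CPM, next 1780). One rat at 0.02 mg/kg had 4.32 CPM of Mybl1 (next 2.11), and 1 control had 15.4 CPM of Nr1d1 (next 8.94).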

How the results depend on the processing

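The count of 4 genes at 0.02 mg/kg was 18 with DESeq2, 2 with voom, 0 with run 1 only, 0 at an adjusted p under 0.01, and 1 to 11 with 1 rat left out. The 163 early genes were 106 without the low-count filter, 283 with DESeq2, 56 at an adjusted p under 0.01, 44 and 39 with only the 0.075 mg/kg rats under and over 25 M counts, and 103 to 193 with 1 rat left out. The 4 genes of 0.075 against 0.02 mg/kg were 12 in another setting, 2 (run 1 only), 2 (adjusted p under 0.01), and 0 and 0 (both depth splits). They were 3 to 5 with 1 rat left out. The 68 departures from a line were 40 without the filter, 137 with DESeq2, 36 thinned, 19 at an adjusted p under 0.01, 16 and 18 in the depth splits, and 34 to 80 with 1 rat left out. With only the 0.075 mg/kg rats under 25 M counts 2 genes were called at 0.02 mg/kg. The 1881 1.0-only genes were 901 and the 734 graded genes 1279 under class limits of 0.15 and 0.85; the graded were 380 under 0.33 and 0.67, 481 at an adjusted p under 0.01 and 405 with the shallower rats. With 1 rat left out they were 1718 to 1971 and 649 to 844, the calls at 1.0 mg/kg 4880 to 5294, those of 1.0 against 0.075 mg/kg 3748 to 4250 and the lines in dose 5338 to 5775. In 1 fit of all 70 rats the furan 0.12 mg/kg counts were 11 (1.0-only, opposite), 14 (graded, same), 5 (onward, opposite), 2 (level, same) and 2 (back, opposite). The cause of these shifts was not tested. No named gene reversed. Epha4 lost its call in 23 of 39 settings, Cobll1 in 20, Fign in 14, Mbnl3 in 13, and Cdc25c and Serpinb8 in 11 each. Aqp9, Cd3eap and Ppp1r3c lost theirs in 9 each, and some other early genes named above in fewer. The authors' deposited table has 18, 268 and 5522 genes at an adjusted p under 0.05 at 0.02, 0.075 and 1.0 mg/kg, of which 4, 162 and 5053 were called here. No paired analysis was possible because the dose groups share no rat numbers.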
